A study of Mus musculus with 10 samples.

Results

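The genes described here are the 200 with the greatest deposited length among those with enough reads to be measured in NIH-3T3 mouse embryonic fibroblasts. Genes with a mean of at least 100 counts over the 10 libraries were ranked by the length given for them, and the longest 200 were kept after a fixed set of symbols had been dropped, namely collagens, the Kdm, Kmt, Setd, Chd, Arid and Zfp families, predicted genes, RIKEN clones and single genes such as Malat1, Neat1, Atm and Mki67. The table held 17053 genes, of which 10232 reached the count minimum and 9530 remained after the dropped symbols. Among the dropped symbols, 30 were longer than the shortest member. Lengths ran from 10208 (Egfr, a receptor tyrosine kinase) to 123179 (D10Wsu102e), with a median of 11850 against 3458 for all genes that reached the count minimum. Kif1b (10233), Mib1 (10231) and Egfr lay just inside the limit, and Usp31 (10198), Arhgef17 (10190) and Sbno1 (10161) lay just outside. The sources used here do not say whether a length is that of 1 transcript or of all exons merged, so lengths served for ranking and for levels per kb.

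All 10 libraries came from wild-type NIH-3T3 cells, an established line, and each group held 2 libraries, lettered A and B. Untreated cells received nothing. Cells of the uridine group received 800 µM uridine for 2 h, and the other 3 groups received 800 µM 4-thiouridine (4sU), a uridine analogue that cells build into RNA made during the exposure, also for 2 h. RNA from 4sU-treated cells was sequenced without chemical conversion, after the SLAM reaction (alkylation with iodoacetamide) or after the TUC reaction (osmium tetroxide with ammonium). The labels do not say whether A and B were separate cultures, so the spread between them, and every p-value below, may be technical.

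Some long messenger RNAs encode giant structural, motor, ubiquitin-ligase and chromatin proteins. A single long molecule offers many uridines to label and many positions at which it can break. In the conversion methods compared here, a 4sU base is chemically changed so that it is read as cytosine, which separates RNA made during labelling from older RNA in the same library. RNA has to pass through the reaction and a clean-up before a library is made from it.

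Both conversion chemistries came with lower counts of long genes, and so, to a smaller extent, did 4sU itself. Members took 2.11% and 2.56% of all counts in untreated A and B, 1.92% and 2.55% with uridine, 1.73% and 2.31% with unconverted 4sU, 1.21% and 1.94% after SLAM, and 1.36% and 1.75% after TUC. Each chemistry gave a lower share than unconverted 4sU of the same letter, and letter B gave a higher share than letter A in each of the 5 groups. The 200 shortest genes chosen by the same rule took 2.91% and 2.51% of counts in untreated cells, 3.28% and 2.79% with unconverted 4sU, 3.60% and 2.81% after SLAM, and 3.78% and 3.34% after TUC. Counting error on these shares was small (95% Wilson interval for SLAM A, 1.206% to 1.213%, counting error only). Shares and counts are relative to the rest of the library, so a lower value does not separate loss of a long RNA from gain elsewhere.

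**Figure D1:**
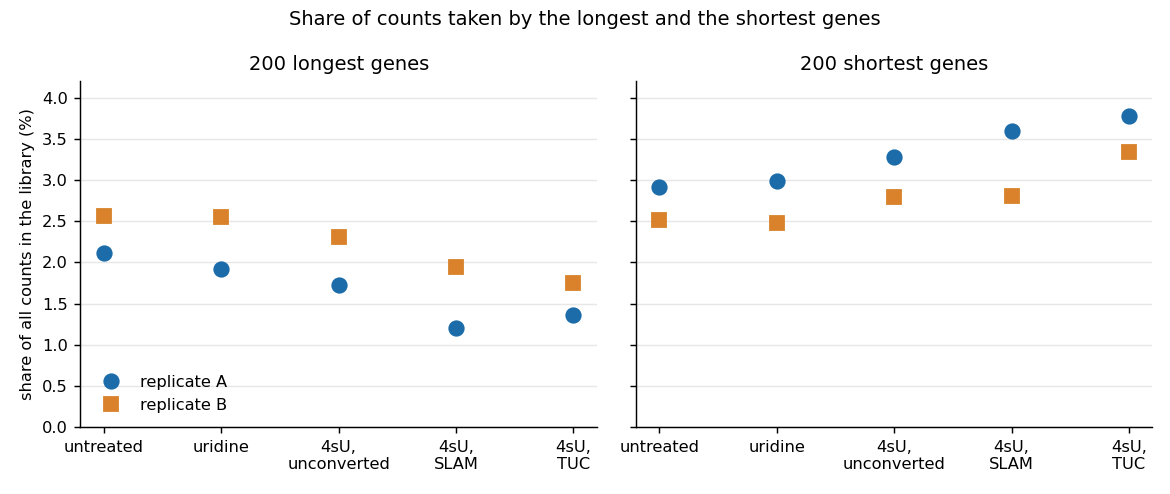
Share of all counts in each library (%, y axis) taken by the 200 longest genes (left) and the 200 shortest (right), by group (x axis); circles are replicate A and squares replicate B. The longest genes run from 2.56% in untreated B to 1.21% in SLAM A, and the shortest from 2.48% in uridine B to 3.78% in TUC A.

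Library totals ranged from 27094222 to 33785682 counts, and all 200 members passed the filter on low counts. Summed levels of 12 fibroblast markers were between 17550 and 25650 CPM (counts scaled by the effective library size) in every library, while 4 epithelial markers summed to at most 0.327, 7 endothelial markers to at most 1.65, 6 muscle markers to at most 2.57 and 6 macrophage markers to between 16.0 and 28.3. Fibroblast markers reached their highest sum and macrophage markers theirs after SLAM, and any part of this in the results was not tested. Within groups, A and B differed far beyond counting error (chi-square 38.4 to 78.1 per degree of freedom), and their difference across genes was shared between groups (correlations across genes 0.731 to 0.822). Each comparison is therefore given from edgeR's quasi-likelihood test both without the letter and with the letter as a block; "rose" and "fell" below mean that the block fit gave a Benjamini-Hochberg adjusted p under 0.05.

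Members' mean counts ran from 102.9 to 56590 with a median of 1555. Their median level was 4.07 CPM per kb, a value that is divided by the length they were chosen for and is given as a description. The highest levels per kb belonged to Lrp1, an endocytic receptor (118), Ahnak, a giant scaffold protein (97.3), Serbp1, a ribosome-associated RNA-binding protein (55.4), Plec, the cytoskeletal linker plectin (40.1), and Sh3pxd2a, a podosome scaffold (35.2). Dync1h1, the heavy chain of cytoplasmic dynein (30.8), Prrc2c, an RNA-binding protein (30.2), and Huwe1, a ubiquitin ligase (26.9), followed. The lowest was Hmcn1, which encodes the matrix protein hemicentin (0.185).

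Promoter windows are shown for 4 members at the ends of the SLAM comparison, where 154 members fell and 5 rose. They belong to 3 of the 5 lowest, with 1 window each, and to the highest. Pou2f1, the lowest of all, has 3 windows, which are not shown. RefSeq windows (GRCm38.p6, 250 bases before to 50 after an annotated start) matched 160 of the 200 members by symbol, in 197 windows. Capitals mark matches to 5 motifs, searched on both strands, with overlapping matches run together. The GC box was searched as GGGCGG. The CCAAT box was searched as those 5 letters. The TATA box was searched as TATAAA. The E-box was searched as CACGTG. The CRE half-site was searched as TGACG. Nbeal1 (ENSMUSG00000073664), which encodes a BEACH-domain protein, Phip (ENSMUSG00000032253), a bromodomain protein, and Scai (ENSMUSG00000035236), an inhibitor of the MRTF co-activators, were among the lowest after SLAM, and Crebbp (ENSMUSG00000022521), the acetyltransferase CBP, was the highest.
Nbeal1, chr1:60180349-60180648, strand +: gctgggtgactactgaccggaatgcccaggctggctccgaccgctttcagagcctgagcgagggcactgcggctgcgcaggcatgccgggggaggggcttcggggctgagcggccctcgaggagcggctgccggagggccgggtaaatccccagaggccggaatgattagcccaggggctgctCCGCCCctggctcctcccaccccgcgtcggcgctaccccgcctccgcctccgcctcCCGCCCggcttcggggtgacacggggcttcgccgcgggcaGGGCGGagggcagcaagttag
Phip, chr9:82975440-82975739, strand -: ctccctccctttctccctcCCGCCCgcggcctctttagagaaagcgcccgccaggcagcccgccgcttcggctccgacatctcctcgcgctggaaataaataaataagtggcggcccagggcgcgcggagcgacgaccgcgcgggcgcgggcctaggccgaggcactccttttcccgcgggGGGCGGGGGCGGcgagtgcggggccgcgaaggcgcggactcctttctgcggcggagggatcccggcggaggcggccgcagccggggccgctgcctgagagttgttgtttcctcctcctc
Scai, chr2:39190681-39190980, strand -: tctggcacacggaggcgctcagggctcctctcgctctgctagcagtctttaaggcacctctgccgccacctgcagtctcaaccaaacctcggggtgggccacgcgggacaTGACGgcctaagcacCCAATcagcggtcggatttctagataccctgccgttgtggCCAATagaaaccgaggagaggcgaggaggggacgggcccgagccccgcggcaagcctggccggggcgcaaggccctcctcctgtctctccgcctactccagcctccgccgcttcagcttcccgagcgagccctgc
Crebbp, chr16:4213355-4213654, strand -: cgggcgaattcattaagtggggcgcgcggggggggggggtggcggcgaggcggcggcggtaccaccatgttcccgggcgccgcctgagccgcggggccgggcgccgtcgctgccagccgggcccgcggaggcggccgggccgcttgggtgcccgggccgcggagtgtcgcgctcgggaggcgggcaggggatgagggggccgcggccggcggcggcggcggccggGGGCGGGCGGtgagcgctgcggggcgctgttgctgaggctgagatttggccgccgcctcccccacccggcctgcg

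GC boxes stood in the windows of Nbeal1, Phip and Crebbp alike, and CCAAT boxes and a CRE half-site in that of Scai. Of the other 4 members that rose after SLAM, Zfhx3, Tnxb and Cux1 had windows with no match. Both windows of Nek6 held GC boxes, and 1 also held a CCAAT box and a TATA box. Of the 3 windows of Pou2f1, 1 held GC boxes, 1 TATA boxes and 1 no match. Over all members' windows, 69.5% held a GC box, 31.0% a CCAAT box, 7.61% a TATA box, 6.09% an E-box and 21.3% a CRE half-site. The same shares over the 9712 windows of the genes that reached the count minimum after the dropped symbols were 66.2%, 38.1%, 6.43%, 10.6% and 32.9%, and over all 32851 windows 35.7%, 37.4%, 13.6%, 7.15% and 20.8%. Median GC content was 65.7% in members' windows, 61.7% in those of the genes kept by count and 52.7% in all. These matches describe letters in a window and no binding.

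The comparison of SLAM with unconverted 4sU sets libraries with and without the chemistry side by side, at the same cell line, 4sU dose and labelling time. The labels do not say whether these libraries came from the same cultures. The median log2 fold change of members was -0.40 without the letter and -0.41 with it (median over all 12218 genes tested, 0.00 in both), and 185 of 200 members were below 0 with the letter as a block, against 49.9% of all genes. With the letter as a block, 154 members fell, where 21.6% of all genes did, and 5 rose, where 20.0% of all genes did. Without the letter no member was called (0.0164% of all genes lower and 0.327% higher), 41 members had an unadjusted p under 0.05, as did 2284 of the 12218 genes, and DESeq2 called 5 lower and 0 higher (2.68% and 2.97% of the genes it tested). In 82 members both SLAM libraries lay below both unconverted libraries, as in 22.6% of all genes. Within letters the median difference was -0.50 in A and -0.32 in B. A fall of more than 1.5-fold was reached by 50 of the 154, as by 2.49% of all genes.

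Pou2f1, which encodes the transcription factor Oct-1, had 14.2 and 19.1 CPM with unconverted 4sU (A and B) and 6.56 and 10.8 after SLAM. Both SLAM libraries were below both unconverted ones, and its log2 fold change was -0.94 ± 0.11 (SE; adjusted p = 1.59e-05, edgeR with the letter as a block). Nbeal1 had 12.8 and 25.0 CPM without conversion and 6.32 and 13.4 after SLAM. Letter B was higher in each group and the groups overlapped. The log2 fold change of Nbeal1 was -0.94 in both fits, with an SE of 0.10 with the block and 0.48 without. Its call therefore rested on the letter (edgeR adjusted p = 5.71e-06 with the block and 0.337 without). Phip had 26.4 and 45.5 CPM without conversion and 14.7 and 22.7 after SLAM, with no overlap and a log2 fold change of -0.93 ± 0.10. Scai, with 13.5 and 23.1 CPM against 8.51 and 11.2, changed by -0.88 ± 0.09. Vps13c, which encodes a bridge-like lipid transfer protein, had 36.3 and 54.7 CPM against 17.2 and 33.0 and changed by -0.87 ± 0.08. All 5 had lower values after SLAM in both letters, which was a condition for being named here.

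The 5 members that rose after SLAM included transcription regulators and a matrix gene. Crebbp went from 47.8 and 61.3 CPM to 56.5 and 96.1 (log2 fold change 0.46 ± 0.09; edgeR adjusted p = 0.000728, block fit). The groups overlapped, and both letters were higher after SLAM, as the choice of named genes required. Zfhx3, a homeobox and zinc finger transcription factor, went from 18.6 and 30.7 to 22.3 and 40.7 (0.34 ± 0.09). Tnxb, which encodes the matrix glycoprotein tenascin-X, went from 10.8 and 16.1 to 15.3 and 18.7 (0.34 ± 0.09). Nek6, a mitotic kinase gene, had 51.6 in both unconverted libraries and 59.9 and 58.4 after SLAM (0.20 ± 0.06), and Cux1, a homeobox gene, went from 77.9 and 90.1 to 85.8 and 101 (0.15 ± 0.06). Of these 5, 1 was still called in each of the 4 fits that left out a single library, while 113 of the 154 lower members were. In the same fit, the housekeeping genes Actb (length 1920) and Gapdh (3289) changed by 0.54 ± 0.06 and 0.44 ± 0.08. Both exceeded the medians of their bins when genes were split into 5 by length, 0.17 and 0.00.

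TUC gave a like picture against the same unconverted libraries, so its values are set beside those of SLAM and are not independent of them. The median log2 fold change of members was -0.44 in both fits (all genes, 0.01), and 183 of 200 were below 0 against 48.5% of all genes. With the letter as a block 148 members fell (14.2% of all genes) and 2 rose (11.6% of all genes). Leaving out TUC B lowered the calls in either direction from 150 to 74, and 71 of the 148 were called in each of the 4 fits without 1 library. Without the letter no member was called, nor any other gene (0.0% in each direction), 39 members had an unadjusted p under 0.05, as did 846 of the 12218 genes, and DESeq2 called 0 members (0.0635% of its genes in each direction). In 107 members both TUC libraries lay below both unconverted libraries, as in 18.9% of all genes. The median difference was -0.39 in letter A and -0.46 in B, and 42 members fell by more than 1.5-fold (1.19% of all genes).

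Vps13c had the lowest value of the called members after TUC, with 21.0 and 29.6 CPM in A and B against 36.3 and 54.7 (log2 fold change -0.84 ± 0.09; edgeR adjusted p = 7.15e-05, block fit). The groups did not overlap. Syne1, which encodes the giant nesprin that ties the nuclear envelope to the cytoskeleton, had 25.8 and 29.6 CPM against 42.0 and 52.9 (-0.77 ± 0.11). Stard9, a kinesin with a lipid-binding domain, changed by -0.76 ± 0.11, Rnf213, a ubiquitin ligase, by -0.76 ± 0.09, and Mycbp2, another ubiquitin ligase, by -0.76 ± 0.09. The 2 that rose were Zfhx3, at 25.0 and 35.0 CPM against 18.6 and 30.7 (0.30 ± 0.09), and Crebbp, at 54.8 and 76.4 against 47.8 and 61.3 (0.26 ± 0.09). Neither was called in each of the 4 fits without 1 library.

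**Figure D2:**
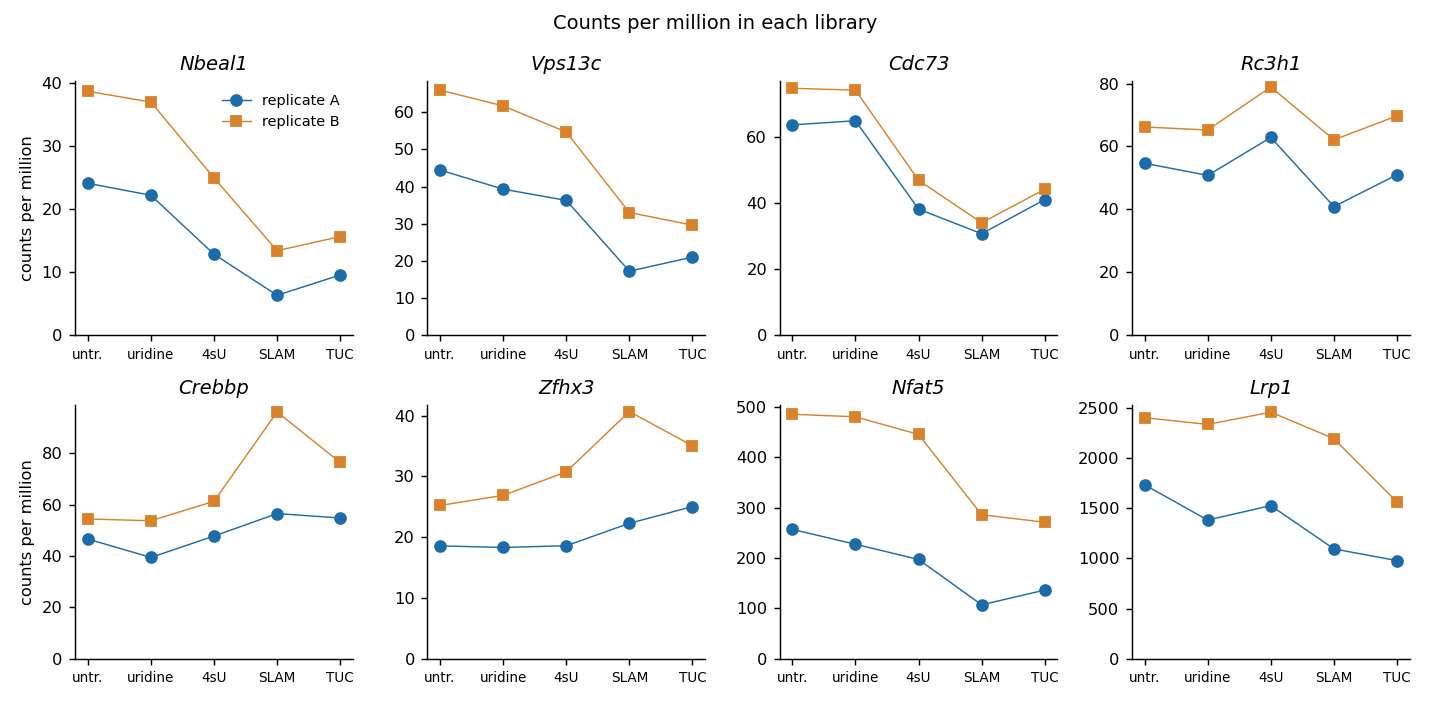
CPM (y axis, from 0) of 8 members in each library, by group (x axis; untr., untreated; 4sU, unconverted); circles are replicate A and squares replicate B, joined by lines within a letter. Nbeal1 and Vps13c are lower after both chemistries in both letters, Crebbp and Zfhx3 are higher, and Nfat5 and Lrp1 are higher in B than in A in each group.

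Between the chemistries themselves, members differed little on the whole and in both directions. The median log2 difference, TUC against SLAM, was 0.01 without the letter and 0.02 with it, but it was 0.15 in letter A and -0.12 in letter B. With the letter as a block, 22 members were higher after TUC (10.0% of all genes) and 11 lower (10.1% of all genes). Without the letter there were 0 in each direction, as over all genes (0.0%), with 7 members and 1205 of all genes at an unadjusted p under 0.05 and no member called by DESeq2 (0.611% of its genes higher and 0.835% lower). Without the letter, the members' median was -0.28 when SLAM A was left out, 0.34 for SLAM B, 0.13 for TUC A and -0.18 for TUC B. With the letter as a block, the counts turned on single libraries in the 4 fits that each left out 1. In all 4 of those fits, 2 of the 22 and 1 of the 11 were called.

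Scai was the member most raised in TUC relative to SLAM, with 10.8 and 16.8 CPM against 8.51 and 11.2 (log2 difference 0.48 ± 0.10; edgeR adjusted p = 0.00303, block fit). Phip followed with 21.3 and 30.1 CPM against 14.7 and 22.7 (0.46 ± 0.10). Cdc73, which encodes the Paf1-complex subunit parafibromin, had 41.0 and 44.1 CPM after TUC against 30.7 and 34 after SLAM (0.40 ± 0.07), with no overlap. Nbeal1 (0.36 ± 0.11) and Ubxn7, which encodes a cofactor of the p97 ATPase (0.33 ± 0.06), were also higher. At the other end, Hivep3, a zinc finger gene, had 6.86 and 8.25 CPM after TUC against 7.96 and 13.6 after SLAM (-0.51 ± 0.11). Ttc28, which encodes a tetratricopeptide-repeat protein, and Spen, a transcriptional repressor, each changed by -0.43 (SE 0.08 and 0.10). Speg, a muscle kinase gene, changed by -0.37 ± 0.10, and Lrp1, at 977 and 1560 CPM against 1094 and 2191, by -0.33 ± 0.09. In each of these 5 members both letters were lower after TUC, again a condition for being named.

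Exposure to 4sU without any conversion also came with lower counts of many members. Against untreated cells the median log2 fold change was -0.23 without the letter and -0.25 with it (all genes, 0.01), and it was -0.31 in letter A and -0.16 in B. With the letter as a block 96 members fell (12.9% of all genes) and 1 rose (6.97% of all genes). Calls in either direction went from 97 to 45 without 4sU A, to 49 without 4sU B and to 43 without untreated A, and 37 of the 96 were called in each fit without 1 library. Leaving out untreated B instead raised the calls. Without the letter no member was called (0.0737% of all genes lower and 0.09% higher), 18 had an unadjusted p under 0.05, as did 1102 of the 12218 genes, and DESeq2 called 4 lower and 0 higher (2.0% and 0.32% of its genes). Both 4sU libraries lay below both untreated ones in 61 members, as in 20.1% of all genes, and 11 members fell by more than 1.5-fold (1.04% of all genes).

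Set against uridine, a comparison that shares the 4sU libraries with the one before, the median was -0.17 without the letter and -0.18 with it, at -0.19 in A and -0.18 in B. With the letter as a block 77 members fell (13.3% of all genes) and 3 rose (6.48% of all genes). Calls in either direction went from 80 to 38 without 4sU A, 39 without 4sU B, 43 without uridine A and 36 without uridine B, and 29 of the 77 held in each of those fits. Without the letter no member was called (0.156% of all genes lower and 0.0982% higher), 15 had an unadjusted p under 0.05, as did 1237 of the 12218 genes, and DESeq2 called 3 lower and 0 higher (1.93% and 0.343% of its genes). In 46 members both 4sU libraries lay below both uridine libraries, as in 19.5% of all genes. Uridine itself gave a median of -0.04 against untreated (-0.12 in A and 0.01 in B). With the block 161 of 200 members were below 0, against 49.4% of all genes. Within letters 174 members were below 0 in A and 88 in B (52.0% and 46.3% of all genes). There were 0 called members in both fits (0.00818% of all genes higher with the block and 0.0% otherwise). Without and with the block, 0 and 10 members, and 46 and 380 of all genes, had an unadjusted p under 0.05. DESeq2 called 0 members.

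Dmxl1, a regulator of the vacuolar proton pump, had 41.7 and 54.8 CPM in untreated cells, 36.5 and 55.4 with uridine and 22.2 and 34.4 with 4sU. Both 4sU libraries were below all 4 others, and it changed by -0.79 ± 0.08 against untreated cells (edgeR adjusted p = 9.82e-06, block fit) and by -0.70 ± 0.09 against uridine. Hook3, which couples dynein to its cargo, had 74.0 and 98.5 CPM in untreated cells and 41.1 and 63.5 with 4sU (-0.74 ± 0.07 against untreated and -0.73 ± 0.07 against uridine). Cdc73 had 63.6 and 74.7 CPM in untreated cells, 64.9 and 74.2 with uridine and 38.1 and 46.9 with 4sU (-0.70 ± 0.06 and -0.71 ± 0.06). Its 4sU libraries, too, lay below all 4 others. Bod1l, which encodes a protein that protects replication forks, changed by -0.75 ± 0.09 and -0.71 ± 0.09. Cubn, the endocytic receptor cubilin, was near the floor of expression at 4.16 and 5.92 CPM in untreated cells and 2.63 and 3.50 with 4sU (-0.72 ± 0.14 and -0.80 ± 0.14). Nbeal1, lower after both chemistries, also changed by -0.75 ± 0.09 with 4sU alone.

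Few members rose with 4sU. Rc3h1, which encodes Roquin-1, a protein that promotes messenger RNA decay, had 54.6 and 66.2 CPM in untreated cells, 50.8 and 65.2 with uridine and 62.9 and 78.9 with 4sU (0.23 ± 0.07 and 0.29 ± 0.07). It fell after both chemistries (-0.47 ± 0.07 for SLAM and -0.24 ± 0.07 for TUC). Plec and Cux1 rose against uridine (0.21 ± 0.07 and 0.19 ± 0.06) and did not pass against untreated cells (0.09 ± 0.07 and 0.07 ± 0.06). None of the higher calls in these 2 comparisons held in each of the fits without 1 library.

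The values of members continue a gradient over all genes. When the 10232 genes were split into 5 bins of equal number by length, the median log2 fold change after SLAM, with the letter as a block, went from 0.17 in the shortest bin through 0.09, 0.00 and -0.10 to -0.26 in the longest, and members had -0.41. After TUC the medians were 0.19, 0.08, -0.01, -0.09 and -0.24, with -0.44 in members. For 4sU against untreated cells they went from 0.12 to -0.14, with -0.25 in members. The 200 shortest genes had 0.10 after SLAM, 0.25 after TUC and 0.17 with 4sU. Across genes, which are not independent replicates, Spearman's rho between length and log2 fold change was -0.56 for SLAM and -0.72 for TUC over all 10232 genes, and -0.17 and -0.25 over the 200 members. Within the members, the 50 longest had medians of -0.49 (SLAM) and -0.56 (TUC), and the 50 shortest -0.36 and -0.40.

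**Figure D3:**
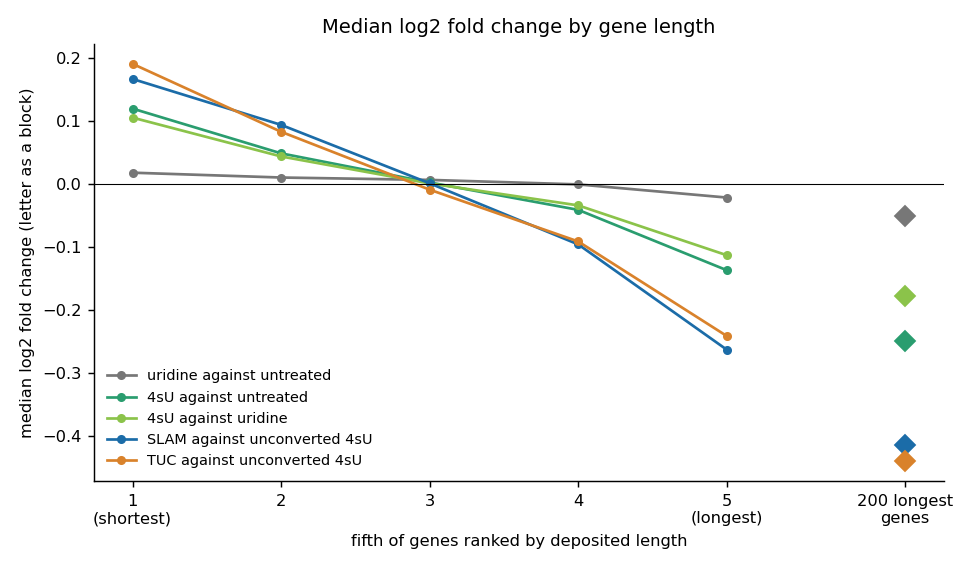
Median log2 fold change with the letter as a block (y axis) in 5 bins of genes ranked by deposited length (x axis, circles joined by lines) and in the 200 longest genes (diamonds), for 5 comparisons; the members also lie within the longest bin. After SLAM the medians go from 0.17 to -0.26 over the bins and to -0.41 in the 200 longest genes, while for uridine against untreated they stay between 0.02 and -0.05.

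The 2 longest entries did not lie at the far end of that gradient. D10Wsu102e, at 123179, had 142 and 147 CPM with unconverted 4sU, 106 and 113 after SLAM and 129 and 127 after TUC. It fell after both (-0.40 ± 0.05 and -0.17 ± 0.05) and differed between letters by 0.02 (log2, B against A). D1Ertd622e, at 40378, fell after SLAM (-0.31 ± 0.07) and had 0.02 ± 0.07 after TUC. Hnrnpr, a splicing-related RNA-binding protein listed at 21452, behaved alike, with -0.34 ± 0.05 after SLAM and -0.06 ± 0.05 after TUC. Syne1 (27908), Zbtb20, a transcriptional repressor (26901), Macf1 and Dst, the spectraplakins that join actin to microtubules (23495 and 23279), and Syne2 (21704) fell after both, with values from -0.49 (Macf1) to -0.78 (Syne2) for SLAM and from -0.55 (Macf1) to -0.77 (Syne1) for TUC.

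Members differed between the letters by as much as after a chemistry. Over all 10 libraries, the median log2 difference of B against A was 0.41 in members and 0.01 over all genes, and 164 members were higher in B (31.0% of all genes) and 10 lower (29.3% of all genes). Of the 164, 160 held in each of 10 fits without 1 library. The median difference was 0.24 in untreated cells, 0.40 with uridine, 0.38 with unconverted 4sU, 0.61 after SLAM and 0.32 after TUC. By length bin it went from -0.21 in the shortest to 0.23 in the longest. Kif26b, a kinesin gene, and Nfat5, the osmotic-stress transcription factor, had the greatest difference, 1.11 each. Nfat5 had 257 CPM in untreated A and 485 in B, and 107 and 286 after SLAM. Hmcn1 differed most the other way (-0.71), from 5.65 CPM in untreated A to 2.95 in B. The labels give the letters no meaning beyond replicate, and what set A and B apart was not tested.

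Grouped by function, 117 members belonged to a list. Counts are given with the letter as a block, and each is followed by that of all tested genes of the list whatever their length, the members included. Of all 200 members, 77.0% fell after SLAM and 74.0% after TUC (21.6% and 14.2% of all genes). With 4sU against untreated cells 48.0% of members fell (12.9% of all genes). Whether any list departed from the members' shares was not tested. Among 14 ubiquitin ligases and deubiquitinases, 13 fell after SLAM and 13 after TUC (whole list of 50 genes, 42 and 40 fell, none rose), with medians of -0.55 and -0.60. Huwe1 changed by -0.41 ± 0.09 and -0.60 ± 0.09, Birc6, an inhibitor-of-apoptosis ligase, by -0.67 ± 0.08 and -0.72 ± 0.08, Usp9x, a deubiquitinase, by -0.62 ± 0.08 and -0.60 ± 0.08, and Ubr4, an N-degron ligase, by -0.46 ± 0.08 and -0.60 ± 0.08. With 4sU alone 11 of the 14 fell against untreated cells and 1 rose, which was Rc3h1 (whole list of 50, 31 fell and 1 rose).

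Of 11 genes of lipid transfer and vesicle trafficking, 10 fell after SLAM and 11 after TUC (whole list of 44, 35 and 34 fell; 1 and 0 rose). Wdfy3, an autophagy adaptor, changed by -0.68 ± 0.09 and -0.63 ± 0.09, Nbea, a neurobeachin, by -0.54 ± 0.08 and -0.49 ± 0.08, and Golgb1, the Golgi tether giantin, by -0.37 ± 0.08 and -0.48 ± 0.08. Itsn1, an endocytic scaffold, was the one that did not pass after SLAM (-0.12 ± 0.06), and it fell after TUC (-0.24 ± 0.06). All 10 large kinases fell after each chemistry (whole list of 41, 24 and 28 fell; 1 and 0 rose). Smg1, the kinase of nonsense-mediated decay, changed by -0.77 ± 0.09 and -0.70 ± 0.09, and Trrap, a pseudokinase scaffold of histone acetyltransferases, by -0.27 ± 0.06 and -0.47 ± 0.06. Wnk1, a regulator of ion transport, and Trio lay between them after SLAM (-0.47 ± 0.07 and -0.59 ± 0.09).

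Of 10 RNA-processing genes, 10 fell after each chemistry (whole list of 73, 50 and 55 fell; 4 and 0 rose). Mdn1, a ribosome-assembly ATPase, changed by -0.77 ± 0.09 and -0.66 ± 0.09, Ago2, the slicing Argonaute, by -0.67 ± 0.07 in both, Prrc2c by -0.58 ± 0.09 and -0.60 ± 0.09, and its relative Prrc2b by -0.26 ± 0.07 and -0.40 ± 0.07. All 6 motor-protein genes fell after each (whole list of 26, 18 and 20 fell; 1 and 0 rose). Dync1h1 changed by -0.46 ± 0.08 and -0.56 ± 0.08, Myo5a, a cargo-carrying myosin, by -0.39 ± 0.06 and -0.44 ± 0.06, Kif1b, a vesicle kinesin, by -0.64 ± 0.09 and -0.47 ± 0.09, and Myo9a, another myosin, by -0.59 ± 0.09 and -0.54 ± 0.09. The 3 cadherin-family members fell after each (whole list of 12, 5 and 6 fell; 3 and 1 rose): Fat1, an atypical cadherin, had -0.62 ± 0.08 and -0.69 ± 0.09, Pcdh19, a protocadherin, -0.56 ± 0.07 and -0.31 ± 0.07, and Fat4 -0.48 ± 0.15 and -0.75 ± 0.16.

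Among 7 signalling receptors, 7 fell after SLAM and 6 after TUC (whole list of 38, 18 and 22 fell; 1 and 0 rose). Bmpr2, a BMP receptor, changed by -0.57 ± 0.06 and -0.39 ± 0.06, Notch2 by -0.36 ± 0.08 and -0.50 ± 0.08, Plxna2, a semaphorin receptor, by -0.37 ± 0.07 and -0.51 ± 0.07, and Igf1r, the IGF-1 receptor, by -0.19 ± 0.07 after SLAM, while its value after TUC (-0.16 ± 0.07) did not pass. Of 5 GTPase regulators 4 fell after each (whole list of 81, 40 and 58 fell; 4 and 0 rose), among them Arhgef12 (-0.54 ± 0.08 and -0.53 ± 0.08), Arhgap32 (-0.56 ± 0.10 and -0.51 ± 0.10), Akap13, a kinase anchor (-0.42 ± 0.09 for each), and Nf1, a Ras inactivator (-0.30 ± 0.07 and -0.36 ± 0.07). Of 5 centrosome and cilium genes 4 fell after each (whole list of 38, 19 and 18 fell; none rose). Akap9 changed by -0.70 ± 0.08 and -0.60 ± 0.08, Cep350 by -0.61 ± 0.09 and -0.57 ± 0.09, and Pkd1, the polycystin-1 gene, by -0.53 ± 0.07 and -0.61 ± 0.07, whereas Cdk5rap2, a microtubule-nucleation factor, had 0.07 ± 0.06 and -0.16 ± 0.06 and passed in neither.

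Of 15 cytoskeletal linkers 9 fell after SLAM and 12 after TUC (whole list of 31, 19 and 24 fell; none rose). Ahnak and Plec, the most abundant of them, passed in neither: Ahnak had 1538 and 1992 CPM without conversion, 1106 and 1968 after SLAM and 1623 and 1926 after TUC, and Plec had 524 and 795, 477 and 825, and 485 and 716. Of 20 transcription co-regulators 14 fell and 3 rose after SLAM, and 16 fell and 2 rose after TUC (whole list of 104, 71 and 80 fell; 3 and 2 rose). Those that rose were Crebbp, Zfhx3 and, after SLAM, Cux1. Nfat5 (-0.75 ± 0.08 and -0.63 ± 0.08), Atrx, a chromatin remodeller (-0.72 ± 0.08 and -0.51 ± 0.08), and Bptf, a remodeller subunit (-0.54 ± 0.10 for each), fell, and Srcap, a histone-exchange ATPase, fell after TUC (-0.41 ± 0.09) and had -0.17 ± 0.09 after SLAM. Of 4 matrix genes, Svep1, an adhesion protein (-0.32 ± 0.08 and -0.56 ± 0.08), and Pappa, a protease that cleaves IGF-binding proteins (-0.66 ± 0.10 and -0.70 ± 0.11), fell after each, Tnxb rose after SLAM, and Hmcn1 had -0.17 ± 0.17 and -0.27 ± 0.17 (whole list of 34, 13 and 18 fell; 7 and 0 rose). No member belonged to the list of p53 targets.

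**Figure D4:**
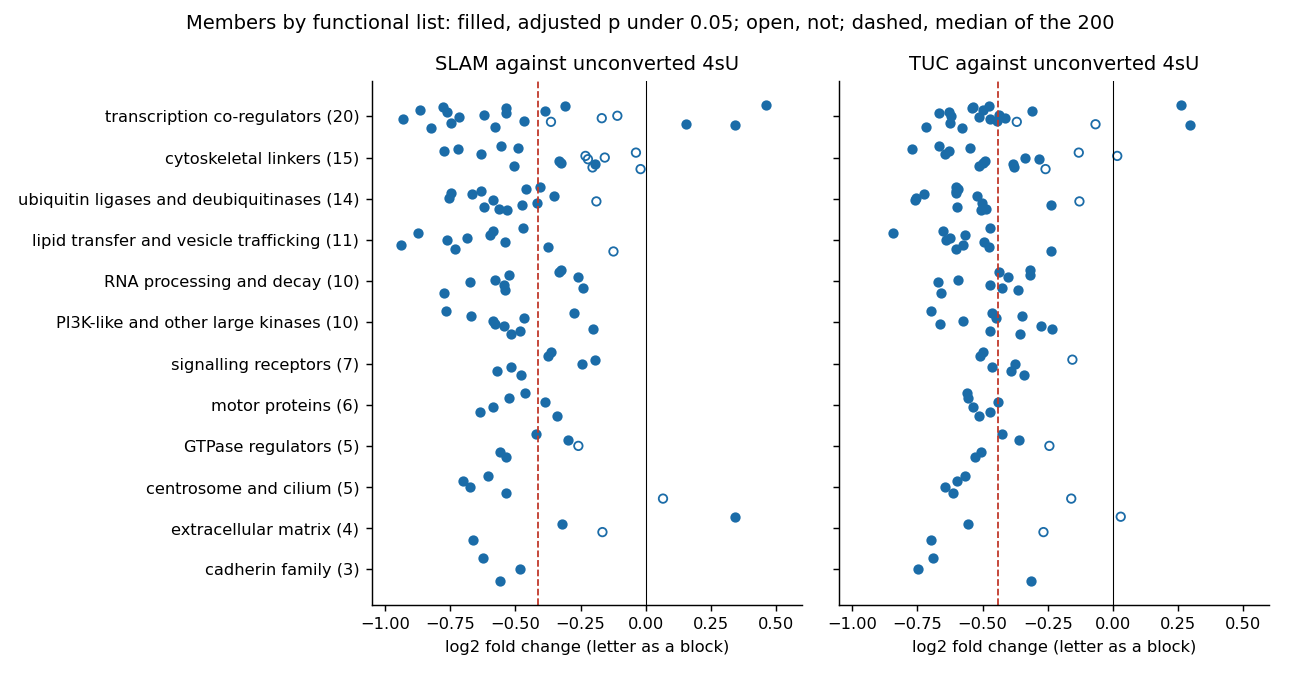
Log2 fold change with the letter as a block (x axis) of the members of each functional list with at least 3 members (y axis, number of members in parentheses), for SLAM (left) and TUC (right) against unconverted 4sU; each point is a gene, filled where the adjusted p was under 0.05, and the dashed line is the median of the 200 members (-0.41 and -0.44). Filled points to the right of 0 are 4 genes on the left and 2 on the right.

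Members had a higher median than all genes in the deposited fraction of new RNA, whose column names do not say what it is and which is taken here for the share of RNA made during labelling. Its median over members was 0.645 and 0.705 after SLAM (A and B) and 0.697 and 0.738 after TUC, against 0.526 and 0.614, and 0.547 and 0.632, over the 10232 genes. Without conversion it was 0.0204 and 0.0201 in members, and with uridine 0.014 and 0.0095, which is the background of the estimate. Averaged over the 4 converted libraries, 54 members lay above 0.9 and 49 below 0.5. Over the 10232 genes, the highest 20% began at 0.901 and the median was 0.579. The fraction rose with length over all genes (Spearman's rho 0.33 across 10232 genes) and not within the members (-0.08 across 200). Averaged over the converted libraries, the longest of the 5 length bins, 2047 genes of which the members are part, had a median of 0.733 against 0.702 in members, so the higher fraction is not particular to them. Members ranked 51 to 100 had the highest median of the 4 rank groups of 50, 0.789, against 0.615 in the 50 longest.

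**Figure D5:**
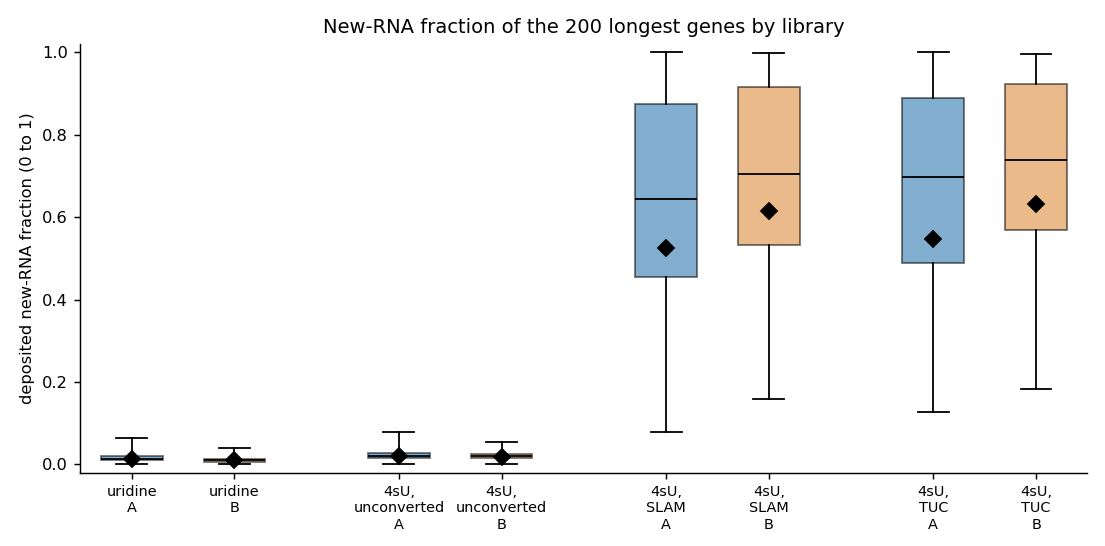
Deposited fraction of new RNA (y axis, 0 to 1) of the 200 longest genes in each of 8 libraries (x axis); boxes span the quartiles with the median as a line, whiskers reach the lowest and highest member, blue is replicate A and orange replicate B, and black diamonds are the median over all 10232 genes. The members' median lies above the diamond in each converted library, for example 0.645 against 0.526 in SLAM A.

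The members with the lowest fraction were mostly older RNA by this measure. Slc4a8, a bicarbonate transporter gene, had 0.0788 and 0.192 after SLAM and 0.126 and 0.184 after TUC. Svep1 had 0.147 and 0.162, and 0.142 and 0.185. Lrp1 had 0.171 and 0.184, and 0.188 and 0.208. Dync2h1, the motor of transport within cilia (mean of the 4 libraries 0.202), Myo5a (0.221), Vps13c (0.226), Prex2, a Rac exchange factor (0.241), and Top2b, a DNA topoisomerase (0.256), followed. At the top, Zbtb1, a transcription regulator of lymphoid development, had 1.00 and 0.991, and 0.988 and 0.997. Mars2, the mitochondrial methionyl-tRNA synthetase (0.99), Med13, a subunit of the Mediator kinase module (0.988), Pou2f1 (0.988), Tet3 and Tet1, which oxidise 5-methylcytosine (0.987 and 0.984), Ino80d, a chromatin-remodeller subunit (0.987), and Ptch1, the Hedgehog receptor (0.980), followed. Tet1 had few reads (mean count 105.3). By list, the median was 0.918 in transcription co-regulators, 0.848 in large kinases, 0.809 in signalling receptors, 0.521 in motor proteins and 0.426 in matrix genes.

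No member's fraction differed between TUC and SLAM by limma on the logit scale (0 of 200 in each direction; 0.0586% of all genes higher and 0.225% lower; 2 members and 245 of the 10232 genes at an unadjusted p under 0.05). With the letter as a block there were also 0, as over all genes (0.0%), with 18 members and 798 of all genes at an unadjusted p under 0.05. Without the letter, some members were called once 1 library was left out, in fits with 1 library in a group. The median difference, TUC minus SLAM, was 0.0168 in members and 0.00955 over all genes, and in members it turned to -0.00565 without SLAM A and -0.0059 without TUC B. In 111 members TUC was higher in both letters, as in 47.3% of all genes, and in 158 B was higher than A in both chemistries, as in 77.6%. Scai had the widest difference, 0.472 and 0.651 after SLAM (0.561 ± 0.126, SD, n = 2) and 0.632 and 0.754 after TUC (0.693 ± 0.0858). SLAM B lay above TUC A, so the groups overlapped. Onecut2, a homeobox gene (0.127), Prex2 (0.0900), Vps13d, a lipid transfer protein (0.0840), and Agpat5, an acyltransferase (0.0800), came next. Onecut2 had few reads (mean count 130.4). The other way were Hmcn1 (-0.0623), Psd3, an ARF exchange factor (-0.0539), Asxl3, a Polycomb-related gene (-0.0435), Itsn1 (-0.0374) and Cubn (-0.0340), of which Hmcn1, Asxl3 and Cubn had few reads.

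Members were lower after conversion at every level of new RNA. In 5 bins of equal gene number by this fraction, members' median log2 fold change after SLAM was -0.36, -0.27, -0.44, -0.45 and -0.47 from the lowest to the highest bin (10, 31, 56, 50 and 53 members), against 0.14, 0.06, -0.02, -0.09 and -0.16 in the other genes of the same bins. After TUC the members' medians were -0.52, -0.24, -0.47, -0.46 and -0.44, against 0.16, 0.07, -0.01, -0.07 and -0.10. Lrp1, with one of the lowest fractions, fell (-0.31 ± 0.09 after SLAM and -0.65 ± 0.09 after TUC), and Vps13c, also low, had the lowest value after TUC. Zbtb1, with the highest fraction, changed by -0.23 ± 0.06 after SLAM and had -0.10 ± 0.06 after TUC. Across the 200 members, Spearman's rho between the fraction and the log2 fold change was -0.24 for SLAM and -0.07 for TUC; the libraries behind both measures are the same.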

How the data were processed

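Per the file headers and values, the authors deposited 1 table with estimated read counts per gene (24.8% to 30.3% of values were not whole; rounded here), a length per gene, and a fraction of new RNA with interval bounds for 8 of the 10 libraries. The header does not name the fraction's estimator; its mode was used. The submitters' processing notes name cutadapt, Bowtie2 2.3.0 and STAR 2.7.10b; no source used here gives the genome build, annotation or counting. 24 further columns of per-library values were not used.

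Expected counts, as deposited, were tested with edgeR 4.0.16 (R 4.3.3; filterByExpr, TMM, quasi-likelihood, all 10 libraries), without the letter as the chosen main design, and with the replicate letter as a block. The letters were taken as pairing libraries because every correlation of B minus A between groups exceeded 0.1 (0.731 to 0.822). CPM uses TMM-scaled library sizes. The deposited fraction was tested as log2(f/(1-f)), bounded at 0.001 and 0.999, with limma 3.58.1. DESeq2 1.42.0, library totals, no filter, other filters, 4-library fits, other set sizes and leaving out libraries were alternatives. On simulated counts for SLAM against unconverted 4sU (12133 genes), 94% of changes of 0.5 (log2) were called with the block and 14% without. Each simulated gene had a single letter shift, the same in every group, which the block fits by construction. In the data the members' median letter difference varied between groups (0.24 untreated, 0.61 after SLAM), so these rates need not hold there. Adjusted p under 0.05 (Benjamini-Hochberg over all genes) was the threshold.

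Members and gene lists were chosen with earlier results of these data known. In each comparison, called members qualified for naming only where both letters had the sign of the block fit. Named genes are the 8 longest, the 5 highest and 5 lowest called members per comparison, the 8 highest and 8 lowest fractions, the 5 widest fraction differences each way, the 4 most counted members of each list with at least 3, the 3 on each side of the limit and the 8 highest per kb; Kif26b was named after its value was seen.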

Additional observations from a re-analysis of the deposited data

How the results depend on the processing

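The fit without the letter called 0 members in every comparison of treatments; adding the replicate block gave 97 (4sU against untreated), 80 (4sU against uridine), 159 (SLAM), 150 (TUC) and 33 (TUC against SLAM), and DESeq2 without it 4, 3, 5, 0 and 0. Block fits without 1 library gave 45, 49 and 43 without 4sU A, 4sU B and untreated A (4sU against untreated), 38, 39, 43 and 36 without 4sU A, 4sU B, uridine A and uridine B (4sU against uridine), 74 without TUC B (TUC), and 76, 66, 11 and 6 without SLAM A, SLAM B, TUC A and TUC B (TUC against SLAM). Sets of the 100 and of the 400 longest genes gave, with the block, 49 and 180, 34 and 156, 84 and 322, 80 and 297, and 13 and 74, and for B against A 87 and 340 against 174 in the 200; these follow the size of the set. Without 1 library and without the block, letters are unbalanced, and the members' median ran from -0.48 to -0.046 (4sU against untreated), -0.41 to 0.01 (4sU against uridine; above 0 only without uridine B), -0.80 to -0.15 (SLAM) and -0.65 to -0.20 (TUC), and crossed 0 for uridine against untreated (-0.27 to 0.13) and TUC against SLAM (-0.28 to 0.34). Calls on the new-RNA fraction also changed without 1 library. For all fits without 1 library, the share of all genes called was not computed. Leaving out untreated B raised the block calls for 4sU against untreated. Plain library totals with the block gave 86 (4sU against untreated), 160 (SLAM) and 148 (TUC). Of 258 alternative values, 220 stayed within the spread between replicates or within 1.5 times the count. The 220 include comparisons of 0 calls with 0 calls. For medians the allowed spread could exceed the median itself (0.28 against -0.17 for 4sU against uridine), so staying within it was a weak check. With 2 libraries a group, the spread between letters set the fit without the block.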
